A study of Mus musculus with 14 samples.

Results

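The genes described are those by which cells make, export, sense and destroy sphingosine-1-phosphate, a lipid that circulates in blood and acts on cells through receptors of its own. They are 9 of the 55335 genes in the deposited count table: the receptors S1pr1, S1pr2, S1pr3 and S1pr4, the kinases Sphk1 and Sphk2, the lyase Sgpl1, the exporter Spns2 and the phosphatase Plpp3. They were matched by gene name, and the set was chosen on a readout of these libraries, the high S1pr3 level after CD45-targeted treatment. Levels of the 9 genes in the CD45-targeted group are therefore given as a description, with no test. The rule of choice did not use the comparisons among the other 3 groups, and these were tested. Earlier results of these data were known when the 9 genes and the lists of other genes used below were chosen. The tests are therefore not fully independent of the choice. All 9 genes passed the filter on low counts that left 21509 genes to be tested.

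RNA was sequenced from 14 samples of bone marrow of mice with the genotype Cdh5 CRE Rosa26 TdTomato. In all groups the cells were sorted as Lineage- CD45- TdTomato+ and are labelled bone marrow endothelium. The untreated group had 4 libraries. The TBI group had 5 libraries from mice given total body irradiation of 500 cGy from a cesium source. The IgG RIT group (3 libraries) received radioimmunotherapy (a radionuclide coupled to an antibody) with a non-targeting control IgG, and the CD45 RIT group (2 libraries) received it with an antibody to CD45, the surface protein of blood cells; both doses were 20 µCi, and the series title names an astatine isotope. Treated mice were sampled after 8 days. The reporter depends on Cre under the Cdh5 promoter, which is active in endothelium and, where Cre acts from the embryo onward, also leaves its mark in blood cells descended from embryonic endothelium; the labels do not say whether this Cre is inducible. They also do not give ages, or say whether replicates came from separate mice, so p-values measure the spread between these libraries.

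Sphingosine-1-phosphate is made inside cells from sphingosine by the kinases Sphk1 and Sphk2 and leaves through exporters, Spns2 in endothelium and Mfsd2b in red cells and platelets. Outside the cell it binds G-protein-coupled receptors, until phosphatases such as Plpp3 take its phosphate off or, inside cells, the lyase Sgpl1 breaks it down for good. In marrow the steep difference between blood and tissue levels guides the exit of lymphocytes and of blood-forming cells, and S1pr1 on endothelium maintains the barrier of the vessel wall.

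The labelled cell type was checked against marker genes. Cdh5, whose promoter drives the reporter, had 0 to 6 counts in untreated and 0 to 5 in TBI libraries, and 0 in the IgG RIT and CD45 RIT libraries. The endothelial adhesion gene Pecam1 had 894 to 1957 counts in untreated libraries and 4 to 6 in CD45 RIT libraries. Ptprc, the gene of CD45, had 1578 to 3273 counts in untreated and 71 to 1424 in TBI libraries, although the cells were sorted as CD45-. It had 78 to 286 counts in IgG RIT and 1 to 662 in CD45 RIT libraries. A list of 14 marrow stromal genes, such as Cxcl12 and Lepr, summed to 3243 to 8277 CPM (reads of a gene scaled to library size) in untreated, 945 to 2222 in TBI, 405 to 1187 in IgG RIT and 33280 to 55400 in CD45 RIT libraries, whereas a list of 20 endothelial genes summed to 186 to 227, 69.1 to 157, 64.7 to 74.8 and 82.5 to 307 CPM. Sums of marker lists, here and below, were scaled to total counts alone. The CPM of single genes also used a scaling factor, 1.15 to 1.23 in untreated and 0.704 to 0.776 in CD45 RIT libraries. Sums and single-gene CPM are therefore not on the same scale. Of the 20 endothelial genes, Cdh5, Tek, Sox17 and Stab2 were at 0 in all IgG RIT libraries, and these with Tie1 and Emcn in both CD45 RIT libraries. Sox17 had at most 1 count in untreated libraries as well. Other genes of the list reached higher counts. Plvap had 223 to 2561 counts in CD45 RIT and 251 to 425 in untreated libraries, and Kdr 1 to 2390 and 0 to 70. Vwf had 642 to 888 in IgG RIT and 431 to 667 in untreated libraries. Among the 15 tested, 3 were called higher and 4 lower in CD45 RIT against untreated, where 33.1% of all genes were called. A list of 11 erythroid genes summed to 8391 to 15080 CPM in untreated, 25690 to 174800 in TBI, 133100 to 141000 in IgG RIT and 47440 to 191200 in CD45 RIT libraries, and 8 haematopoietic genes to 2117 to 2391, 123 to 1024, 125 to 298 and 133 to 149 CPM. A list of 10 neutrophil genes summed to 10280 to 12930 CPM in untreated, 87.9 to 1214 in TBI, 599 to 796 in IgG RIT and 5.23 to 14.7 in CD45 RIT libraries. For 5 basophil and mast cell genes the sums were 5712 to 8948, 99.1 to 1017, 9.65 to 378 and 0.129 to 0.186 CPM. The part of these cells in the falls described below was not tested. The cells are therefore called by their sort and not endothelial. In such bulk samples, fewer cells of a type and less RNA per cell cannot be told apart. Total counts per library were 16412779 to 31077588. TBI replicate 6 stood apart from the other TBI libraries: its erythroid sum was 174800 CPM against at most 44200 in the other TBI libraries, and its correlation over genes was 0.929 to 0.932 with the IgG RIT libraries and 0.911 to 0.923 with the TBI libraries. The CD45 RIT libraries correlated at 0.673 with each other, the lowest value within any group, against at least 0.906 within the other groups.

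S1pr3 (chr13:51408639-51422797, plus strand, GRCm38), Plpp3 (chr4:105157347-105232764, plus strand) and Spns2 (chr11:72451638-72489904, minus strand) are the members on which the tested results turn, because all 3 were lower after TBI. Their upstream sequence is shown to set these genes side by side: the 250 bases before the RefSeq start, 5′ to 3′, on the gene's strand (RefSeq, GRCm38.p6). Capitals mark matches, on either strand, to any of 6 motifs: a GATA factor motif (AGATAA), a TEAD motif (GGAATG), an AP-1 motif (TGANTCA), an EBF core (CCCNNGGG), a GC box (GGGCGG) and a TATA motif (TATAAA), where N is any base. The windows are chr13:51408368-51408617 for S1pr3, chr4:105157097-105157346 for Plpp3 and chr11:72475028-72475277 for Spns2.
S1pr3: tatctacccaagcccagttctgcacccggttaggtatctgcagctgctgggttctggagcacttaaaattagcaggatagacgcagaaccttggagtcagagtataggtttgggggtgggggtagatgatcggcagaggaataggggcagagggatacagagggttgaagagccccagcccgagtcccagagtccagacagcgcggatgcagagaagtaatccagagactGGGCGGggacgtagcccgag
Plpp3: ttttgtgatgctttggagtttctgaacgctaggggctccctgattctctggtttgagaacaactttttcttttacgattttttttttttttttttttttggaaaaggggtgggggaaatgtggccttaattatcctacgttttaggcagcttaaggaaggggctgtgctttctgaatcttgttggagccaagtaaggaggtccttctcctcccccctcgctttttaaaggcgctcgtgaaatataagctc
Spns2: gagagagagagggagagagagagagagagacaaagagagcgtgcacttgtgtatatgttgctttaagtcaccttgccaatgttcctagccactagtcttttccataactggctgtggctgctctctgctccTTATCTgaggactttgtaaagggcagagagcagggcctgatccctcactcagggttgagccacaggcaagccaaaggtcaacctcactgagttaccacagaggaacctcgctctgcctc
The S1pr3 window held 1 GC box, 20 to 15 bases before the start, a match that 32.7% of all 32851 windows of this length held. Spns2 held 1 GATA factor motif, on the opposite strand, 119 to 114 bases before the start, as did 9.99% of all windows. Plpp3 held none of the 6; TEAD, AP-1, EBF and TATA matches, absent from these 3 windows, occurred in 12.6%, 6.75%, 11.8% and 12.4% of all windows. The GC content was 56.4% for S1pr3, 42.4% for Plpp3 and 51.6% for Spns2. A match is a stretch of letters and no evidence of binding. The Spns2 window lies inside the gene as GENCODE annotates it. Of the 9 members, 8 had a window, and S1pr1 had none.

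In untreated cells the pathway was expressed at every step. Per kilobase of gene length, the kinase Sphk1 had the highest mean level of the 9, 32.7 ± 5.72 CPM per kb (SD, n = 4), followed by Plpp3 at 19.9 ± 5.16, Spns2 at 13.0 ± 1.57 and the receptor S1pr3 at 11.0 ± 1.03. Sphk2 at 8.86 ± 0.672, S1pr1 at 7.90 ± 1.62 and Sgpl1 at 7.39 ± 2.21 CPM per kb came next. S1pr4, a receptor mainly of blood cells, was at 4.78 ± 1.35 and S1pr2 lowest at 1.34 ± 0.583 CPM per kb. From Plpp3 down to S1pr4 the range of each gene overlapped with that of the next, while Sphk1 (27.5 to 38.2 CPM per kb) lay above all others and S1pr2 (0.783 to 2.12) below all others. In CD45 RIT libraries (n = 2) the order was another one, with Plpp3 at 525 ± 49.8, S1pr3 at 126 ± 55.02 and S1pr1 at 70.1 ± 21.3 CPM per kb first, and S1pr4 last at 0.0303 ± 0.0428.

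**Figure D1:**
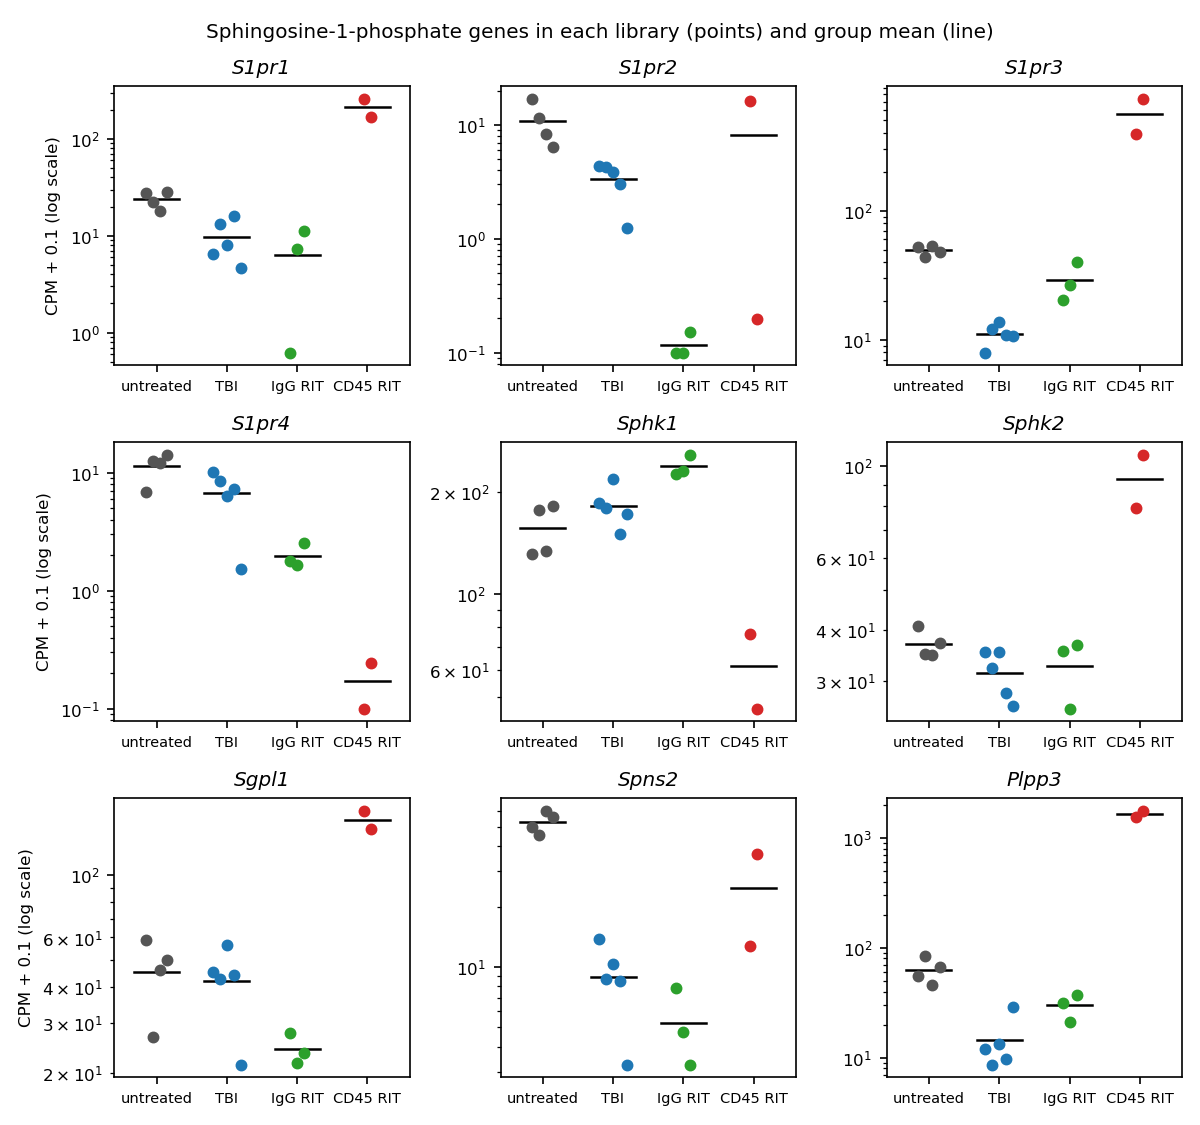
CPM + 0.1 of each of the 9 genes (vertical axis, log scale) in each library (points) of the 4 groups, with the group mean as a line. The 2 CD45 RIT libraries lie above all others for S1pr1, S1pr3, Sphk2, Sgpl1 and Plpp3 and below all others for S1pr4 and Sphk1. The genes were chosen on this group. The share of all genes lying outside the other libraries in this way was not worked out, so nothing is read from how many members do.

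Among the receptors, S1pr3, which couples to several G proteins and is known in stromal and vascular cells, fell after TBI. Its level was 52.8, 43.4, 53.0 and 47.5 CPM in untreated replicates 1 to 4, and 7.86, 12.0, 13.7, 10.7 and 10.6 CPM in TBI replicates 1, 3, 4, 5 and 6. Every TBI library lay below every untreated one. The log2 fold change was -2.16 (SE 0.24), with an adjusted p of 0.00127 by edgeR's quasi-likelihood test with Benjamini-Hochberg adjustment, the test behind each adjusted p given here. Without TBI replicate 6 it was -2.15 (edgeR adjusted p = 0.00165). The call ended with a term for replicate number (a replicate block) in the fit. In IgG RIT replicates 1 to 3 S1pr3 was at 20.4, 26.6 and 39.7 CPM. These values lay between the TBI and the untreated libraries without overlap. The difference from untreated was -0.77 (SE 0.28) on the log2 scale and did not pass the threshold (edgeR adjusted p = 0.0777, and 0.0403 without IgG RIT replicate 3 and 0.0246 without CD45 RIT replicate 1). The difference of IgG RIT from TBI was 1.40 (SE 0.26), with an edgeR adjusted p of 0.0508. It was 0.0121 without TBI replicate 6, 0.0131 without CD45 RIT replicate 1 and 0.00765 without CD45 RIT replicate 2. In the CD45 RIT replicates, which the choice of genes used, S1pr3 was at 390 and 737 CPM, above the other 12 libraries. The log2 differences were 3.52 (SE 0.30) from untreated, 4.29 (SE 0.35) from IgG RIT and 5.68 (SE 0.30) from TBI.

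The S1pr3 level was also set against the stromal list. Of its 14 genes 8 were called lower and 0 higher after TBI, where 4.31% of all genes were called, 3.38% lower. After IgG RIT 3 were called lower and 0 higher, beside 16.4% of all genes, 10.7% lower. Per 1000 counts of that list, S1pr3 had 8.24 and 10.3 counts in the CD45 RIT libraries, within the range of 7.83 to 19.8 in the untreated ones. The values were 4.19 to 15.5 in TBI, overlapping the untreated range, and 13.7 to 57.4 in IgG RIT. Thus the CD45 RIT libraries stood above the others in CPM but not per stromal count. Plpp3 had 24.8 and 32.7 counts per 1000 stromal counts in CD45 RIT, above the 8.28 to 17.0 of untreated libraries, while IgG RIT libraries had 21.2 to 45.9. TBI libraries, lower than untreated in CPM, had 5.93 to 20.9 Plpp3 counts per 1000 stromal counts and overlapped with untreated. S1pr1 had 2.35 and 5.48 counts in CD45 RIT and 4.13 to 6.69 in untreated libraries. These ratios were not tested, nor was the part of the stromal genes in the levels of S1pr3 and Plpp3. S1pr3 shares 45 exon bases with Gm32834, a noncoding gene on the opposite strand, with 62 to 107 counts in untreated, 3 to 22 in TBI, 18 to 42 in IgG RIT and 321 to 877 in CD45 RIT libraries; whether counting used strand is not given in the sources used here.

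**Figure D2:**
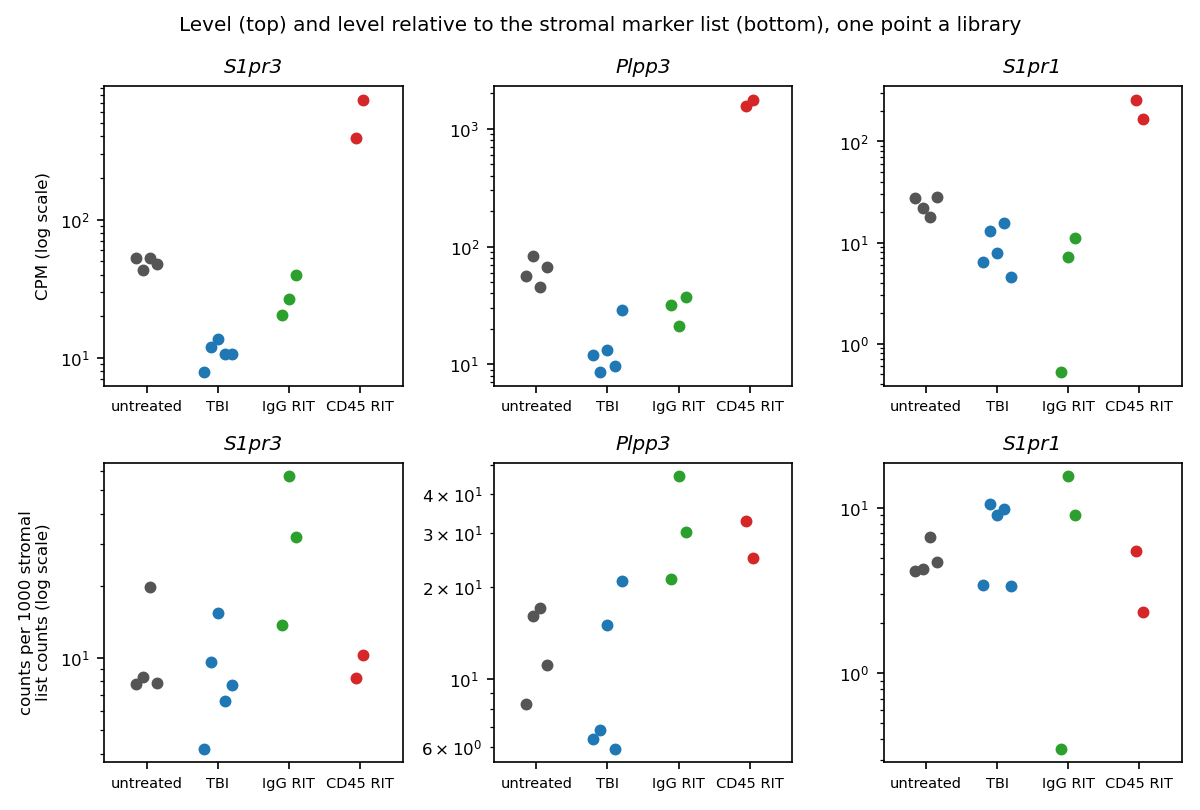
S1pr3, Plpp3 and S1pr1 in each library (points) by group, as CPM (top row) and as counts per 1000 counts of the 14-gene stromal list (bottom row), both on log axes. S1pr3 in CD45 RIT libraries, at 390 and 737 CPM, is above every other library in the top row, and at 8.24 and 10.3 counts it is within the untreated range in the bottom row.

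S1pr1, the receptor of endothelial barrier function and lymphocyte exit, had a mean per kilobase below that of S1pr3 in untreated, IgG RIT and CD45 RIT libraries, and 3.14 against 2.46 CPM per kb in TBI. It was at 27.8, 22.1, 18.0 and 28.4 CPM in untreated, 6.37, 13.1, 7.92, 15.8 and 4.59 CPM in TBI, and 0.521, 7.17 and 11.1 CPM in IgG RIT replicates. The treated libraries of both groups lay below the untreated ones, and IgG RIT replicate 1 was far below its group. The log2 differences from untreated, -1.33 (SE 0.60) for TBI and -1.94 (SE 0.73) for IgG RIT, did not pass the threshold (edgeR adjusted p = 0.264 and 0.0886). In CD45 RIT replicates S1pr1 was at 259 and 168 CPM, a log2 difference from untreated of 3.15 (SE 0.75).

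S1pr2, another receptor of the family, was nearly undetected after IgG RIT. Its counts were 644, 383, 246 and 180 in untreated replicates and 0, 0 and 1 in IgG RIT replicates, and it was at 1.15 to 4.21 CPM in TBI libraries. From 1453 counts in the untreated group and 1 count in IgG RIT, the ratio of levels was 628, with a 95% counting interval of 113 to 24830. The fall passed the test (edgeR adjusted p = 0.00547). All IgG RIT and CD45 RIT libraries and TBI replicate 6, but no untreated library, have a library number of 10 or more in the labels. With a term for such numbers the calls after IgG RIT ended for S1pr2 (edgeR adjusted p = 0.367) and for the other members called there, S1pr4 (1) and Spns2 (0.782), so that library number and IgG RIT cannot be told apart. The TBI group (3.23 ± 1.27 CPM, n = 5, against 10.7 ± 4.65 CPM, n = 4, in untreated) did not overlap with untreated, with an edgeR adjusted p of 0.344; that p was 0.0367 without CD45 RIT replicate 1 and 0.0349 without CD45 RIT replicate 2. The CD45 RIT libraries differed from each other, with 265 counts in replicate 1 and 2 counts in replicate 2.

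S1pr4, the receptor of lymphoid and myeloid cells, was lower with each form of RIT. It was at 6.76, 12.6, 12.1 and 14.1 CPM in untreated and 1.68, 1.54 and 2.42 CPM in IgG RIT replicates. The log2 fold change was -2.60 (SE 0.72, edgeR adjusted p = 0.0294), a call that ended when any one of untreated replicates 2, 3 and 4 or IgG RIT replicates 1, 2 and 3 was left out (adjusted p 0.0556 to 0.1). TBI libraries had 10.1, 8.37, 6.20, 7.15 and 1.44 CPM. They overlapped with untreated (edgeR adjusted p = 0.551), and TBI replicate 6 was at the level of IgG RIT. In the CD45 RIT group 0 and 3 counts were found, and the ratio of untreated to CD45 RIT was 138 (95% counting interval 47.0 to 669). Per 1000 counts of the haematopoietic list S1pr4 had 3.59 to 7.21 counts in untreated, 6.76 to 10.8 in IgG RIT, 8.26 to 13.0 in TBI and 0 and 0.842 in CD45 RIT libraries. The fall of S1pr4 in IgG RIT libraries went with a lower haematopoietic sum, whose part in the result was not tested.

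S1pr5, the receptor left out of the set, had 131 counts in TBI replicate 1, 17.8% of the receptor counts per kb of that library, and 15 counts or fewer in every other library. S1pr3 supplied 44.0 ± 4.61% (n = 4) of receptor counts per kb in untreated, 29.9 ± 13.7% (n = 5) in TBI, 71.98 ± 10.4% (n = 3) in IgG RIT and 62.5 ± 17.6% (n = 2) in CD45 RIT libraries. S1pr1 supplied 31.3 ± 4.85%, 33.6 ± 10.0%, 18.8 ± 13.5% and 36.9 ± 16.8%. The share of S1pr4 was 19.1 ± 5.47% in untreated and 28.4 ± 9.93% in TBI libraries, 9.20 ± 3.21% in IgG RIT and 0 and 0.0275% in CD45 RIT. In IgG RIT libraries the S1pr3 share, 65.5 to 84.0%, lay above all untreated libraries (39.6 to 49.8%).

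**Figure D3:**
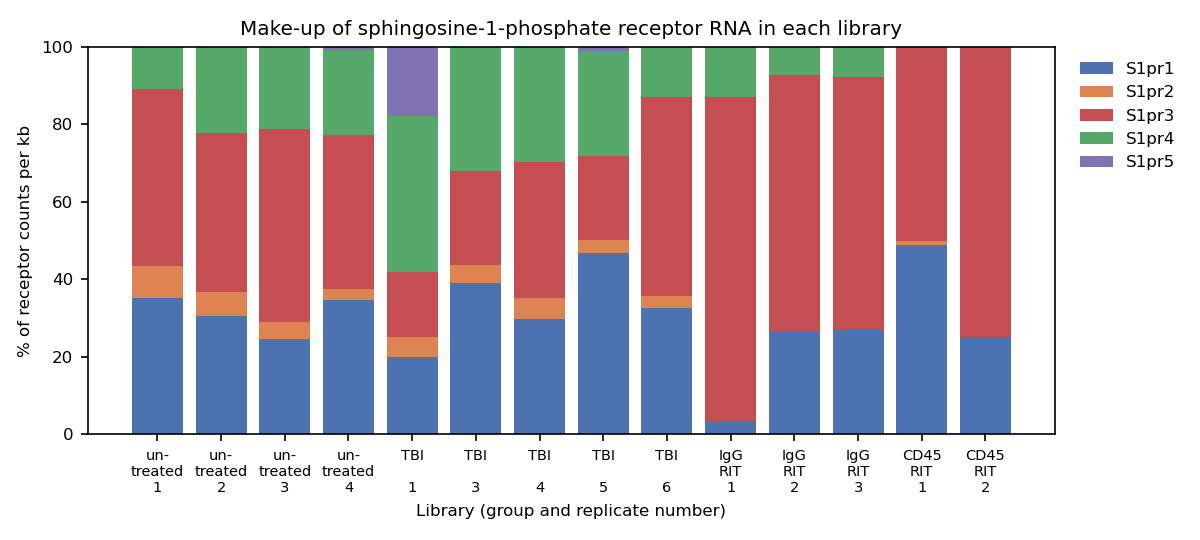
Share of each receptor gene in the summed receptor counts per kilobase (vertical axis, %) in each of the 14 libraries. S1pr3 takes 65.5 to 84.0% in IgG RIT libraries against 39.6 to 49.8% in untreated ones, and S1pr4 is at 0 and 0.0275% in the CD45 RIT libraries.

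The kinases differed from each other. Sphk1, the cytosolic kinase induced by growth factors, was at 131, 178, 134 and 182 CPM in untreated, 186, 179, 219, 151 and 172 CPM in TBI and 226, 230 and 258 CPM in IgG RIT replicates. IgG RIT libraries lay above all untreated and TBI libraries, and TBI overlapped with untreated. The difference of IgG RIT from untreated was 0.61 (SE 0.20) on the log2 scale, with an edgeR adjusted p of 0.0600. It was 0.0157 without CD45 RIT replicate 1 and 0.00204 without CD45 RIT replicate 2. For TBI it was 0.22 (95% interval -0.14 to 0.57, edgeR adjusted p = 0.619). In CD45 RIT replicates Sphk1 was at 76.5 and 46.0 CPM, the lowest levels of the 14 libraries. The erythroid sum, 133100 to 141000 CPM in IgG RIT and 191200 and 47440 CPM in the CD45 RIT libraries, was above all untreated libraries in both groups, and its part in the Sphk1 levels was not tested.

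Sphk2, the kinase of nucleus and mitochondria, stayed within 25.6 to 40.7 CPM in the 12 libraries of the other 3 groups and was at 79.0 and 107 CPM in CD45 RIT. The log2 differences from untreated were -0.23 (95% interval -0.62 to 0.16) for TBI and -0.18 (-0.62 to 0.27) for IgG RIT (edgeR adjusted p = 0.625 and 0.624); with median-of-ratios scaling the latter turned to 0.03. Reads of Sphk2 are uncertain, since its exons share 539 bases with Dbp and 373 with Rpl18 on the opposite strand, and Dbp had 1179 and 2528 counts in CD45 RIT against 18 to 302 elsewhere. Of kinase counts per kb, Sphk1 supplied 78.4 ± 3.67% (n = 4) in untreated, 83.4 ± 1.32% (n = 5) in TBI, 86.5 ± 1.99% (n = 3) in IgG RIT and 45.8 and 27.3% in the CD45 RIT libraries.

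**Figure D4:**
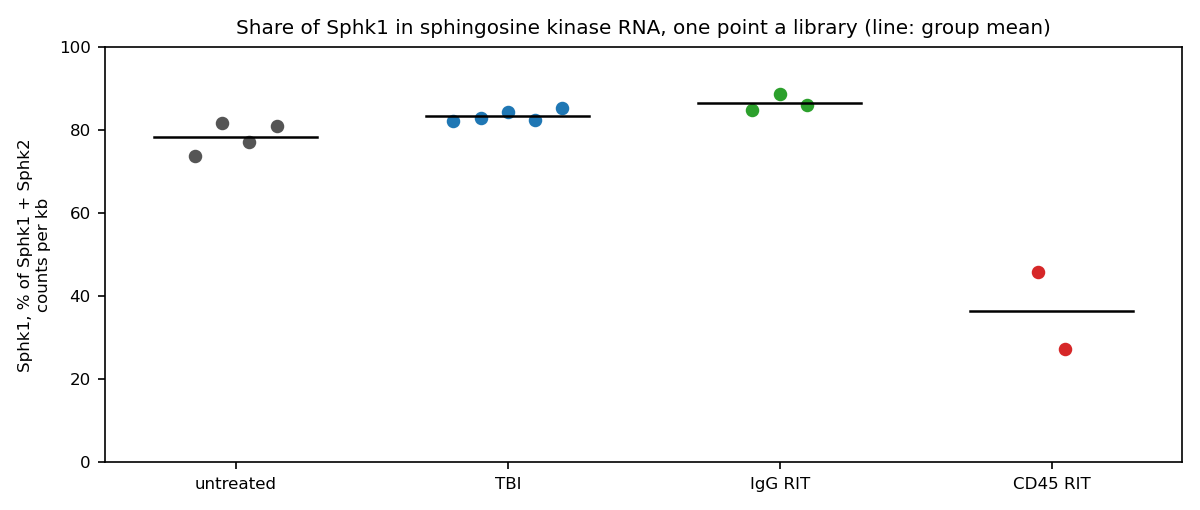
Share of Sphk1 in the counts per kilobase of Sphk1 and Sphk2 together (vertical axis, %) in each library (points), with the group mean as a line. The CD45 RIT libraries, at 45.8 and 27.3%, lie below the other 12 libraries, which lie between 73.8 and 88.7%.

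Spns2, the exporter that supplies lymph and tissue with the lipid from endothelium, fell after both TBI and IgG RIT. It was at 50.1, 45.7, 60.2 and 56.1 CPM in untreated, 13.7, 8.58, 10.2, 8.37 and 3.16 CPM in TBI, and 7.76, 4.63 and 3.15 CPM in IgG RIT replicates. No treated library of either group reached the untreated range. The log2 fold change was -2.59 (SE 0.44, edgeR adjusted p = 0.00706) after TBI, and -2.37 (edgeR adjusted p = 0.00677) without TBI replicate 6. After IgG RIT it was -3.35 (SE 0.56, edgeR adjusted p = 0.00348). With the replicate block the Spns2 call after TBI ended. The difference between IgG RIT and TBI was -0.77 (SE 0.48, edgeR adjusted p = 0.413). The CD45 RIT replicates, at 12.7 and 36.5 CPM, also lay below the untreated ones. Per 1000 counts of the endothelial list, Spns2 had 282 to 331 counts in untreated and 38.8 to 105, 35.2 to 87.9 and 92.1 to 108 counts in TBI, IgG RIT and CD45 RIT libraries, all below the untreated range. The genes that make up this list's counts differed between groups. Pecam1 had 894 to 1957 counts in untreated and 72 to 171 in IgG RIT libraries, but Vwf 431 to 667 and 642 to 888. Kdr reached 2390 counts in CD45 RIT and at most 70 in untreated libraries. The ratio therefore does not give Spns2 per endothelial cell. Per 1000 haematopoietic counts the ranges were 26.2 to 30.4 in untreated, 9.67 to 21.9 in TBI and 8.82 to 37.9 in IgG RIT, so that IgG RIT overlapped with untreated, and the CD45 RIT libraries, at 59.8 and 213, lay above all of them. Spns2 shares 131 exon bases with Mybbp1a on the opposite strand. Mybbp1a had 5649 to 8521 counts in untreated, 1206 to 9054 in TBI, 883 to 1719 in IgG RIT and 459 to 4863 in CD45 RIT libraries. Its part in the Spns2 counts was not tested.

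Plpp3, the membrane phosphatase that removes extracellular sphingosine-1-phosphate and lysophosphatidic acid, had the widest range of the set in CPM, from 8.54 to 1769. It was at 55.8, 83.8, 45.7 and 66.7 CPM in untreated replicates and at 12.0, 8.54, 13.2, 9.59 and 28.7 CPM in TBI replicates 1, 3, 4, 5 and 6. The groups did not overlap, and TBI replicate 6 was the highest of its group. The log2 fold change was -2.13 (SE 0.34, edgeR adjusted p = 0.00493), and -2.54 (edgeR adjusted p = 4.68e-04) without TBI replicate 6. With the replicate block the call ended. IgG RIT replicates were at 31.6, 21.2 and 37.2 CPM, below every untreated library, but the difference of -1.07 (SE 0.39) did not pass (edgeR adjusted p = 0.0811, and 0.0131 without TBI replicate 6). The difference of IgG RIT from TBI was 1.06 (SE 0.36, edgeR adjusted p = 0.154, and 0.00551 without TBI replicate 6). In CD45 RIT replicates Plpp3 was at 1547 and 1769 CPM, 4.72 (SE 0.44) above untreated, 5.79 (SE 0.51) above IgG RIT and 6.85 (SE 0.43) above TBI on the log2 scale.

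Sgpl1, the lyase that ends the pathway, did not pass the test in TBI, IgG RIT or their difference. It was at 58.9, 26.6, 46.1 and 49.98 CPM in untreated, 45.2, 42.6, 56.5, 44.2 and 21.3 CPM in TBI and 27.6, 21.5 and 23.3 CPM in IgG RIT replicates. Untreated replicate 2 and TBI replicate 6 were at the level of IgG RIT. The log2 difference of IgG RIT from untreated was -0.91 (SE 0.33, edgeR adjusted p = 0.0793), and its edgeR adjusted p was 0.0441 without untreated replicate 2, 0.0306 without TBI replicate 6 and 0.0461 without CD45 RIT replicate 1. The CD45 RIT replicates were at 168 and 145 CPM, above all other libraries, a log2 difference from untreated of 1.78 (SE 0.35).

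Counted together, 3 of 9 members (S1pr3, Spns2 and Plpp3) were called lower and 0 higher after TBI, where 4.31% of the 21509 genes tested were called, 0.921% higher and 3.38% lower. The median log2 fold change of the 9 was -1.33, beside -0.16 for all genes. With the replicate block 0 members and 38 genes were called after TBI. After IgG RIT 3 of 9 (S1pr2, S1pr4 and Spns2) were called lower and 0 higher, beside 16.4% of genes called, 5.75% higher and 10.7% lower, with medians of -1.07 and -0.42. With the library number term 0 members and 19 genes were called after IgG RIT. These comparisons share the untreated libraries. Between IgG RIT and TBI 0 members were called by edgeR, while 5 (S1pr2, S1pr3, S1pr4, Sgpl1 and Plpp3) had an unadjusted p under 0.05 and DESeq2 called 3 (S1pr2, S1pr3 and S1pr4) among 2025 genes in all. Of all genes 0.242% were called, 0.0697% higher and 0.172% lower, while 3984 genes had an unadjusted p under 0.05. The contrasts that the choice of genes used gave 5 members higher and 2 lower for CD45 RIT against untreated (all genes 33.1%, 14.5% higher and 18.6% lower). Against IgG RIT the counts were 7 higher and 2 lower (37.7%, 20.2% and 17.5%), and against TBI 6 higher and 2 lower (38.6%, 19.6% and 19.0%); nothing is read from these 3 counts.

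**Figure D5:**
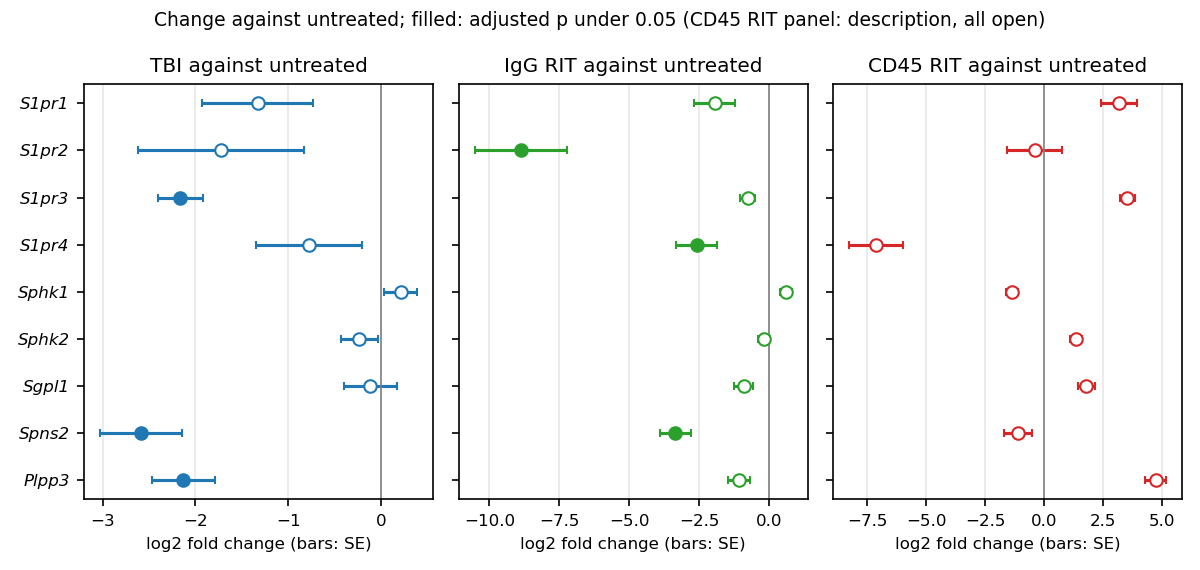
Log2 fold change against untreated (horizontal axis, each panel with its own range) of the 9 genes in TBI, IgG RIT and CD45 RIT, with bars of 1 SE; filled points had an adjusted p under 0.05 in the tested panels. S1pr3, Spns2 and Plpp3 are filled for TBI, and S1pr2, S1pr4 and Spns2 for IgG RIT.

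The rest of the pathway was followed in 4 lists of other genes: 27 genes of ceramide and sphingosine supply, 9 of removal and transport, 19 of receptor signalling and 7 of the related lipid lysophosphatidic acid, of which 58 were tested. After TBI 5 of 58 passed, 1 higher and 4 lower, beside 4.31% of all genes. With the replicate block 0 of 58 passed. Arrb1, an arrestin that ends receptor signalling, rose by 1.56 (SE 0.34) on the log2 scale (edgeR adjusted p = 0.0229). It was at 51.8 to 72.1 CPM in untreated and 117 to 142 CPM in 4 TBI libraries, with 388 CPM in TBI replicate 6. The call ended without any one of the 4 untreated libraries (adjusted p 0.0511 to 0.0841). The ceramidase Asah1, which releases sphingosine from ceramide in lysosomes, was 46.0 ± 3.97 CPM (n = 4) in untreated and 19.9 ± 4.73 CPM (n = 5) in TBI (log2 fold change -1.21, SE 0.22, edgeR adjusted p = 0.00929). The secreted matricellular genes Ccn1 and Ccn2, known targets of YAP signalling, were lower by -2.74 (SE 0.66, edgeR adjusted p = 0.0371) and -1.76 (SE 0.45, edgeR adjusted p = 0.0471). Ccn1 lost the call without any one of the untreated and TBI libraries (adjusted p 0.0593 to 0.0896), and Ccn2 without any one of the untreated, TBI and IgG RIT libraries other than TBI replicate 6 (0.0596 to 0.115). The last of the 5 was the arrestin Arrb2 at -1.09 (SE 0.26, edgeR adjusted p = 0.0378), named after its value was seen.

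After IgG RIT 22 of 58 passed, 6 higher and 16 lower, beside 16.4% of all genes. With the library number term 0 of 58 passed. In ceramide supply 10 of 24 tested genes passed, 2 higher and 8 lower. Cers4, a ceramide synthase, was lower by -4.84 (SE 0.87, edgeR adjusted p = 0.00498), from 11.2 ± 2.59 CPM (n = 4) to 0.384 ± 0.447 CPM (n = 3). Ormdl3, an inhibitor of the first step of sphingolipid synthesis, rose from 83.4 ± 17.4 to 277 ± 14.8 CPM (log2 fold change 1.73, SE 0.31, edgeR adjusted p = 0.00499). In removal and transport 4 of 9 passed. Plpp1, a phosphatase related to Plpp3, rose from 32.2 to 67.8 CPM in untreated to 184 to 186 CPM in IgG RIT (log2 fold change 1.79, SE 0.33, edgeR adjusted p = 0.00502). Aldh3a2, the dehydrogenase that acts on the lyase's product, was lower by -3.34 (SE 0.56, edgeR adjusted p = 0.00358). Mfsd2b, the red cell and platelet exporter, was at 183 ± 33.1 CPM in untreated (n = 4), 283 ± 114 in TBI (n = 5) and 577 ± 119 in IgG RIT (n = 3), a difference that did not pass (1.66, SE 1.12, edgeR adjusted p = 0.323). In CD45 RIT it had 2409 counts in replicate 1 and 0 in replicate 2.

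In receptor signalling 7 of 19 passed after IgG RIT, 3 higher and 4 lower, beside 16.4% of all genes, 5.75% higher and 10.7% lower. Arrb1 reached 370 to 396 CPM (log2 fold change 2.63, SE 0.38, edgeR adjusted p = 0.00211). Klf2, a transcription factor that raises S1pr1 expression in lymphocytes, was lower by -3.23 (SE 0.70, edgeR adjusted p = 0.00991), at 20.7 to 45.6 CPM in untreated and 1.25 to 5.36 CPM in IgG RIT libraries. The lysophosphatidic acid list had 1 of 6 genes called, lower, near the share of all genes. Between IgG RIT and TBI 0 of 58 were called by edgeR and 13 by DESeq2, which called 2025 genes in all against 52 by edgeR.

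Against untreated, CD45 RIT had 25 of 58 pathway genes called, 17 higher and 8 lower, beside 33.1% of all genes. Ccn2 rose from 19.5 to 33.0 CPM in untreated to 546 and 1164 CPM (log2 fold change 4.88, SE 0.58, edgeR adjusted p = 9.14e-05), and Ccn1 from 25.8 to 44.7 CPM to 321 and 1304 CPM (4.65, SE 0.83, edgeR adjusted p = 0.00134). Gnai1, an inhibitory G protein subunit, was at 158 and 138 CPM against 0.601 to 10.3 CPM (log2 difference 4.69, SE 1.23). Its mean was 5.74 CPM in untreated, 1.37 in TBI and 1.40 in IgG RIT libraries. It met the level set for naming through the CD45 RIT libraries, so its values there are a description with no p. Cd69, a lymphocyte protein that removes S1pr1 from the surface, had 0 counts in both libraries and was at 27.6 to 73.3 CPM in untreated ones, at least 319-fold lower against a floor of 3 counts per library (edgeR adjusted p = 2.55e-04). Gna13, the G protein subunit through which S1pr2 acts, was lower by -1.33 (SE 0.40, edgeR adjusted p = 0.0232), and Ugcg, which diverts ceramide to glycolipids, by -1.34 (SE 0.40, edgeR adjusted p = 0.0239). Without CD45 RIT replicate 1 the Gna13 value was -2.57, and without replicate 2 it was -0.71. The Ugcg call ended without untreated replicate 1 or CD45 RIT replicate 2 (0.0502 and 0.0518).

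Against IgG RIT 36 of 58 passed, 26 higher and 10 lower, beside 37.7% of all genes. Smpd3, the neutral sphingomyelinase that makes ceramide, was at 29.1 and 269 CPM against 0.598 to 3.21 CPM (log2 fold change 6.61, SE 1.09). Cers4 was 6.37 (SE 0.97) and Gnai1 6.72 (SE 1.51) higher. The CD45 RIT levels counted toward the naming of Smpd3, Cers4 and Gnai1, so these differences are a description with no p. Cd69 was at least 35.5-fold lower (edgeR adjusted p = 9.69e-04), Gna13 lower by -1.69 (edgeR adjusted p = 0.00794) and Arrb1 by -1.48 (SE 0.47, edgeR adjusted p = 0.0255). The Arrb1 call ended without IgG RIT replicate 3 (0.0519) or CD45 RIT replicate 2 (0.104). Against TBI 32 passed, 24 higher and 8 lower, beside 38.6% of all genes. Lpar1, a receptor of lysophosphatidic acid, was at 68.1 and 134 CPM against 0 to 1.09 CPM in TBI (log2 difference 7.38, SE 1.34). Its mean was 6.14 CPM in untreated and 1.64 in IgG RIT libraries. It met the level set for naming through the CD45 RIT libraries, so no p is given. Ccn1 was 7.39 higher (edgeR adjusted p = 3.1e-05), and Gnai1 6.75 higher, given as a description. Cd69 was at least 182-fold lower (edgeR adjusted p = 2.1e-04), Ugcg lower by -1.78 (edgeR adjusted p = 0.00463) and Gna13 by -1.56 (edgeR adjusted p = 0.00832). The 14 stromal genes were all called higher in CD45 RIT against each of the other groups, and their part in these pathway results was not tested.

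The genes most like S1pr3 over the 14 libraries, by Pearson correlation of log2 CPM among 9547 protein-coding genes, were Fgf7 (0.985), Itm2b (0.978), Ogn (0.977), Spry1 (0.977) and Col8a1 (0.975). Fgf7 encodes a fibroblast growth factor, Ogn and Col8a1 matrix proteins and Spry1 an inhibitor of growth factor signalling. Without the CD45 RIT libraries, over 12 libraries, these values were 0.908 to 0.947. Fgf7 was at 8.35 to 14.4 CPM in untreated, 1.32 to 2.87 in TBI, 2.95 to 7.36 in IgG RIT and 129 to 290 CPM in CD45 RIT libraries, the order of groups seen for S1pr3. The genes most like S1pr1 were Map4k3 (0.984), Arhgap24 (0.965), H6pd (0.962), Nr2f6 (0.959) and Sorbs2 (0.953), with 0.920 to 0.967 over 12 libraries. The points share libraries and group differences, and these values are a description.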

How the data were processed

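The authors deposited whole-number counts per gene for 55335 genes in 14 libraries, with gene names, coordinates and lengths; the values carry no normalization. RNA was amplified with the SMART-Seq v4 kit and tagged with Nextera XT, per the labels' protocols, which use no molecular identifiers, so intervals cover counting error only. Per the submitters' processing notes, FastQC 0.11.9, STAR 2.7.7a and edgeR 3.36.0 were used; the counter and its use of strand are not given in the sources used here. Coordinates matched GENCODE M21 (GRCm38) for 54587 of the gene identifiers, with the same position for all 54587. Columns were matched to samples by library name, and TBI replicate 2 was not analysed here.

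The tests used edgeR 4.0.16 under R 4.3.3. The filterByExpr function (minimum count 10, minimum total count 15) left 21509 genes. TMM factors were 0.704 to 1.23. All 14 libraries entered a single robust quasi-likelihood fit (glmQLFit, glmQLFTest) in which each group had its own mean; 6 contrasts were tested, and p-values were adjusted by Benjamini-Hochberg over all genes tested, with a threshold of 0.05. The SE of a log2 fold change is its size over the square root of F, and 95% intervals are normal. CPM of single genes used TMM-scaled library sizes, and CPM per kb the deposited gene length. Sums of marker lists were scaled to total counts with no TMM factor. A group with 1 to 3 counts is given as a ratio with its exact counting interval, and a group at 0 against a floor of 3 counts per library. The fit was also run on simulated counts with changes planted in TBI or IgG RIT. The simulation gave all groups the same spread, unlike the CD45 RIT libraries, and nothing is read from it here.

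Named were the members, S1pr5, Mfsd2b, the sort markers, from the pathway lists in each comparison the 3 called genes that were raised most and the 3 that were lowered most (mean log2 CPM of at least 3), and the 5 genes most like S1pr3 and S1pr1. The mean log2 CPM was taken over all 14 libraries, so genes high in CD45 RIT could reach the minimum through that group. The members and the lists were chosen with earlier results of these data known. No 2 libraries agreed within sampling noise. Alternatives were median-of-ratios factors, no scaling, no filter, DESeq2 1.42.0, fits of 2 groups, a replicate block, a term for library number and leaving out each library.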

Additional observations from a re-analysis of the deposited data

Results flagged for a closer look

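Single libraries stood off from the rest of their group in 12 of 78 sets of values examined. The rule used flags about 1 in 20 sets by chance only where values are independent and normally spread. The sets here share libraries, and S1pr5 entered both as CPM and as a share, so no excess is read from this number. The cause was not tested. In TBI replicate 6, Plpp3 was at 28.7 CPM (next highest 13.2), Arrb1 at 388 CPM (next 142), Ormdl3 at 302 CPM (next 135) and Ccn2 at 20.9 CPM (next 8.49). This library also had the highest erythroid sum of its group, 174800 CPM.

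S1pr5 was at 4.64 CPM in TBI replicate 1 (next 0.271), 17.8% of the receptor counts per kb there (next 0.981%). In untreated replicate 4 it was at 0.520 CPM, 0.774% of receptor counts per kb, with 0 in the other 3 untreated libraries. Untreated replicate 3 had 19.8 S1pr3 counts per 1000 stromal counts (next 8.35) and the lowest Ccn2 of its group, 19.5 CPM (next 31.6). Untreated replicate 1 had the lowest S1pr4 share of receptor counts per kb, 10.9% (next 21.2%), and the highest Aldh3a2, 40.6 CPM (next 24.7).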

How the results depend on the processing

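Of 1133 values of the members under alternatives, 1111 kept their direction and 22 did not. With the replicate block, counts of genes called became 38 for TBI against untreated (926 without it), 2063 for IgG RIT against untreated (3536), 4062, 5098 and 3756 for CD45 RIT against untreated, IgG RIT and TBI (7116, 8108 and 8308); members called after TBI became 0 (3), with adjusted p = 0.056 for S1pr3, 0.196 for Spns2 and 0.056 for Plpp3, and pathway genes 0 (5), 16 (25) and 15 (32) for TBI, CD45 RIT against untreated and CD45 RIT against TBI, and 2 (0) for IgG RIT against TBI. The labels link these samples only by a number. In their deviations from group means 1 of 13 same-numbered pairs correlated above 0.1 (-0.090 to 0.14). A sample correlated best with its own number in 15 of 26 checks against another group. How many such checks chance would give was not worked out, and whether same-numbered samples share an effect was not tested. DESeq2 called 2434 genes after TBI, 5887 after IgG RIT and 2025 between these (52 by edgeR), with 13 pathway genes after TBI, and 3 members and 13 pathway genes between IgG RIT and TBI. Fits of 2 groups called 3251, 6662, 3995, 2217 and 850 genes for TBI, IgG RIT and CD45 RIT against untreated, CD45 RIT against IgG RIT and IgG RIT against TBI; members became 5 for TBI, 4 (9) for CD45 RIT against IgG RIT and 2 for IgG RIT against TBI, and pathway genes 12, 37, 11 and 6 for TBI, IgG RIT, CD45 RIT against IgG RIT and IgG RIT against TBI.

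With a term for library number, which nearly separates the groups, 19 genes, 0 members and 0 pathway genes were called after IgG RIT, 2458 genes and 14 pathway genes after CD45 RIT, 4525 genes for CD45 RIT against TBI and 0 for IgG RIT against TBI, and 3 pathway genes after TBI. Library number and IgG RIT cannot be told apart. Under this term Sgpl1 turned to 0.054, 0.24 and 0.18 (TBI, IgG RIT, IgG RIT against TBI), Sphk2 to 0.15 (IgG RIT), and, for IgG RIT against TBI, S1pr1 to 0.45, S1pr4 to 0.39 and Spns2 to 0.71. Without scaling, 203 genes, 1 member and 2 pathway genes were called for IgG RIT against TBI. After IgG RIT 7 members were called without scaling, among 5061 genes in all (3536 with scaling), as the median of all genes moved by -0.52. With median-of-ratios factors or without the filter, 3 pathway genes were called after TBI, and S1pr4 missed the threshold after IgG RIT without the filter (edgeR adjusted p = 0.0601). Scaling moved the median of all genes by -0.71 to 0.24 (log2), and the share of calls that were higher: after IgG RIT 35.0% became 46.7% with median-of-ratios factors and 14.5% without scaling, and without scaling 43.8% became 22.7% (CD45 RIT), 50.9% 33.6% (CD45 RIT against TBI) and 28.8% 11.3% (IgG RIT against TBI). Sphk2 after IgG RIT turned to 0.027 with median-of-ratios factors, 0.025 with DESeq2, 0.11 in the fit of 2 groups and 0.0048 without CD45 RIT replicate 2; against TBI it turned to -0.35 without scaling and -0.041 with the replicate block.

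Leaving out each library, genes called ranged from 422 to 2803 (TBI), 1775 to 7364 (IgG RIT), 5840 to 11346 (CD45 RIT), 6359 to 12085 (CD45 RIT against IgG RIT), 6981 to 12029 (against TBI) and 2 to 2144 (IgG RIT against TBI). The highest counts came without a CD45 RIT library: 2661 and 2803 for TBI, and 7364 and 7168 for IgG RIT, without replicates 1 and 2; the last comparison gave 2025 without TBI replicate 6. Members ranged from 3 to 4, 2 to 6, 8 to 9 (CD45 RIT against IgG RIT) and 0 to 5 (IgG RIT against TBI; 5 without TBI replicate 6), and pathway genes from 1 to 12, 12 to 36, 17 to 36, 30 to 40, 29 to 41 and 0 to 12. Sgpl1 after TBI ranged from -0.30 to 0.054, Sphk2 after IgG RIT from -0.27 to 0.0048 and Sphk2 for IgG RIT against TBI from -0.039 to 0.20. The likeness values, with alternatives chosen after seeing the data, moved by less than 0.05 with other scaling. For CD45 RIT against IgG RIT, S1pr2 fell below the filter in the fit of 2 groups, which gave no value. S1pr2, S1pr4 and S1pr5 rest on few counts, which limits their ratios.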
